A study of Mus musculus with 8 samples.

Results

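The transcriptome of the *Aire*-mutant clone E6 was compared with that of its WT parental line, mTEC 3.10, both grown without thymocytes. This comparison before adhesion rests on 4 of the 8 RNA-Seq libraries of the study, 2 of E6 and 2 of WT, chosen by the titles and source names. The other 4 libraries were made after 12 h of co-culture with 50 thymocytes per epithelial cell. Their labelled culture times were mixed within each group, at 24 h in E6 replicate 1 and WT replicate 2 and 12 h in E6 replicate 2 and WT replicate 1. Unless stated otherwise, replicates and culture times named below are those before adhesion. All tested genes of the 4 libraries are described.

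mTEC 3.10 is a medullary thymic epithelial cell (mTEC) line of C57BL/6 mice. The WT group has the wild-type *Aire* genotype. E6 is 1 clone grown from a single cell of this line after Crispr-Cas9 editing of *Aire* exon 3, whereas WT is the uncloned line, so that an effect of the *Aire* mutations and a difference carried by this clone cannot be told apart. The labels give E6 the genotype Aire +/-, its source name calls it Aire KO, and the study's methods describe mutations of both alleles. The cells of both groups are labelled passage 2 and were grown in RPMI 1640 without added thymocytes, for 24 h in E6 replicate 1 and for 12 h in E6 replicate 2 and both WT replicates. The treatment protocol given for the E6 libraries mentions co-culture, against their titles and source names, and their thymocyte markers are given below. The stated times place the 2 E6 libraries in separate cultures, which then differ in time as well, whereas no source states that the 2 WT libraries came from separate cultures. P-values measure only the spread between these libraries, which may be technical in WT.

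mTECs display antigens of peripheral tissues to developing thymocytes, and thymocytes that bind them too strongly are removed. The AIRE protein is a nuclear regulator that turns on many of these antigen genes in mature mTECs. Contact between mTECs and thymocytes depends on the surface and matrix molecules of the epithelial cell, and the study asked how *Aire* mutations alter the mTEC transcriptome, adhesion genes included.

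The editing was directed to exon 3 of *Aire*, which in GENCODE annotation of GRCm38 lies on the minus strand at chr10:78042517-78042672 and is coding in 11 of the 11 protein-coding *Aire* transcripts. Its reference sequence, shown because it is the exon by which E6 was made, has 156 bases and none is set in capitals.
Aire exon 3: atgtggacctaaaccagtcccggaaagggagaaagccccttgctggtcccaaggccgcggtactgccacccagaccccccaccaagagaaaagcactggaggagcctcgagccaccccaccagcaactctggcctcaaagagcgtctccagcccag
*Aire* had 0 counts in each of the 4 libraries, so its mRNA could not be used to check the labels. The smallest level that this depth could show, set at 3 counts, was 0.159 to 0.222 CPM per library, where CPM are the counts of a gene scaled to the total of its library, and a difference in *Aire* below it was not detectable at this depth. Such floors cover counting error only.

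Gene counts summed to between 13506610 and 18915442 per library, 76.2% to 77.7% of the counted alignments, and 12920 to 13175 of the 24052 gene symbols had at least 1 count. The chi-square of the 2 replicates' counts was 3.405 times its degrees of freedom in WT and 4.555 times in E6, so replicates differed beyond sampling noise and were kept as separate samples. TMM factors lay between 0.9936 and 1.006.

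The libraries had the profile of an epithelial line. *Epcam*, a surface molecule of epithelia, had 544.9 and 542.3 CPM in WT and 574.2 and 591.9 CPM in E6. *Cdh1*, the epithelial cadherin, had 838.1 and 866.9 CPM in WT and 852.2 and 831.9 CPM in E6, with overlapping groups. The keratin genes *Krt8*, *Krt18* and *Krt14* were abundant as well, with group means between 486.9 and 1871.4 CPM, whereas *Krt5* stayed between 0.485 and 0.745 CPM. None of these passed the test described below. Of the factors of the thymic epithelium, *Pax1* had a mean of 154.5 CPM in WT and 155.4 CPM in E6, *Pax9* 34.7 and 37.6 CPM, *Foxn1* 14.1 and 11.9 CPM and *Trp63* 3.77 and 4.29 CPM, and none passed either. Of 19 epithelial markers tested 1 was higher and 1 lower, 10.5% against the 13.1% of all tested mRNAs that passed. Of 4 cortical markers tested *Prss16*, a thymic protease, was lower by 0.63 on the log2 scale, but did not pass with DESeq2 or with 8 libraries. The summed level of the cortical markers was 427.2 and 428.1 CPM in WT and 515.7 and 567.6 CPM in E6. Markers of mature mTECs were mostly absent. *Fezf2*, *H2-Aa* and *Tnfrsf11a* (the receptor RANK) had 0 counts in the 4 libraries, *Cd80* had 1 or 2 counts per library and *Cldn3* 0 or 1, whereas *Cldn4* was abundant. The cortical markers *Psmb11* and *Enpep* had 0 counts.

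Markers of other cell types were mostly low. The summed level of the 18 thymocyte markers in the files was 1.39 and 1.47 CPM in WT and 3.26 and 1.86 CPM in E6, and 8 of the 18 had 0 counts in the 4 libraries, among them *Cd247*, *Cd8b1*, *Zap70* and *Dntt*. Most of these counts were of *Lef1*, a Wnt pathway factor, with 12 and 13 counts in WT and 33 and 30 in E6, and *Ptprc*, the CD45 of all leukocytes, had 1 and 0 counts in WT and 4 and 1 in E6. *Lef1*, the 1 tested member, was higher in E6 (log2 FC 1.19, SE 0.38, FDR 0.0145), but did not pass with DESeq2, with 8 libraries, without E6 replicate 1 or without WT replicate 1. Of 15 macrophage and dendritic cell markers 9 had 0 counts, and the summed level, most of it *Csf1r*, was 72.2 and 79.9 CPM in WT and 68.4 and 58.5 CPM in E6. None of its 3 tested members passed with edgeR or DESeq2, with 1 at an unadjusted p under 0.05 in each. Of 9 endothelial markers 4 had 0 counts, the summed level was 1.28 to 2.49 CPM, and the 1 tested member, *Eng*, did not pass. The 7 genes of chromosome Y in the files had 0 counts.

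The 2 groups of libraries were well separated. The Euclidean distance on log2 CPM was 23.4 between the WT replicates and 26.7 between the E6 replicates, against 60.5 to 61.4 between a WT and an E6 library. An mRNA was called differentially expressed (DE) at a false discovery rate (FDR) under 0.05 with a fold change (FC) of 1.5 or more. These limits follow the study's methods. Of 11157 tested mRNAs 1457 were DE, which is 13.1% of those tested. Of these, 653 were higher in E6 (5.85%) and 804 lower (7.21%). Among the 1457, 606 differed at least 2-fold, 164 at least 4-fold and 81 at least 8-fold. Of the last, 23 were higher and 58 lower. As bulk RNA was measured, fewer cells that express a gene and less RNA per cell cannot be told apart.

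The count depended on which libraries set the spread. In the fit with the libraries after adhesion included, 585 of 11672 tested mRNAs were DE (5.01%), 286 higher (2.45%) and 299 lower (2.56%), and 579 of them were among the 1457, each with the same direction. A test against the FC limit itself, in place of a limit on the estimate, called 569 (5.10%), 264 higher (2.37%) and 305 lower (2.73%). Without E6 replicate 1, the one library from 24 h, 1543 were DE and 1273 of them were among the 1457. Such a fit sets 1 E6 library against 2 WT libraries and assumes that the lone library varies as the WT pair does, which holds for each count given without E6 replicate 1.

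**Figure D1:**
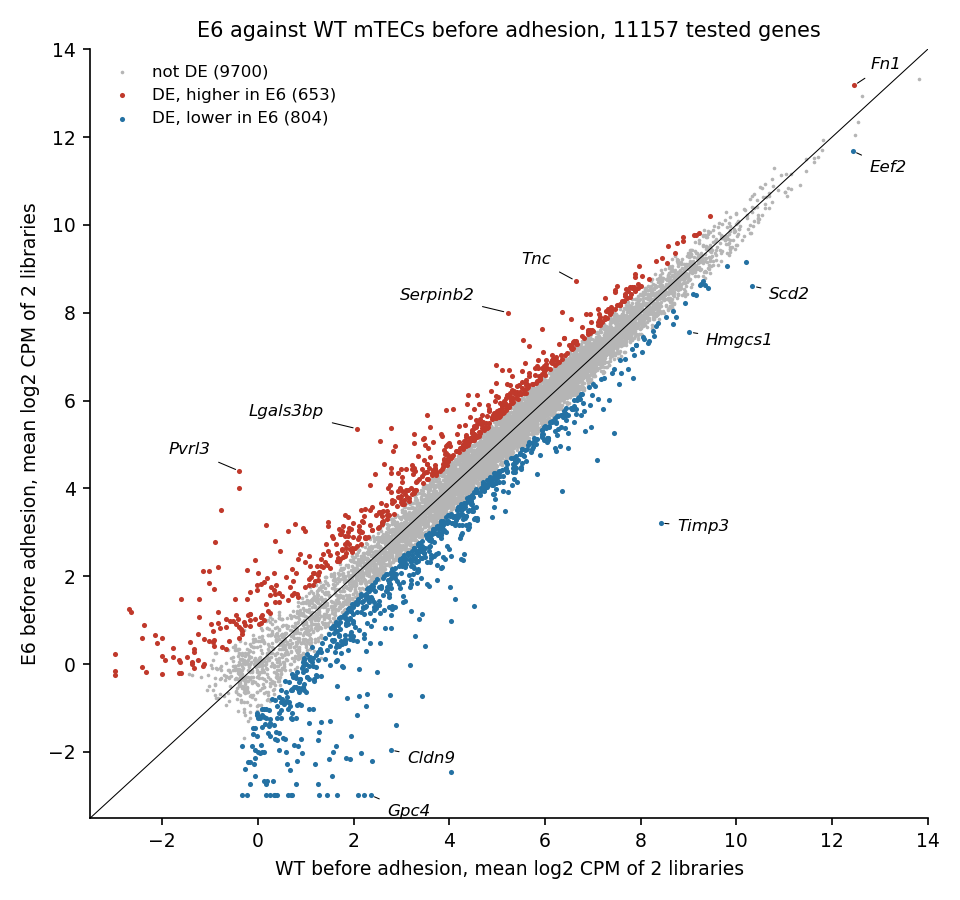
Mean log2 CPM of the 2 E6 libraries (vertical axis) against that of the 2 WT libraries (horizontal axis) for the 11157 tested mRNAs before adhesion, with the line of equal levels. The 653 mRNAs that were DE and higher in E6 lie above the line and the 804 that were lower below it, and *Timp3* is the farthest below it among well expressed mRNAs.

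The largest fall among well expressed mRNAs was that of *Timp3*, a secreted inhibitor of matrix metalloproteinases. The gene lies at chr10:86300372-86349506 on the plus strand. WT libraries had 335.5 and 348.0 CPM and E6 libraries 9.07 and 9.21 CPM (log2 FC -5.22, SE 0.08, FDR 1.45e-20). *Syn3*, a synapsin gene on the opposite strand whose annotated span contains *Timp3*, had 390 and 300 counts in WT and 36 and 43 in E6, a log2 FC of -3.26. The strand setting of the counting is not given in the sources used here, so reads of this gene pair cannot be told apart. *Fabp5*, a fatty acid binding protein, had 139.0 and 132.7 CPM in WT and 23.7 and 26.2 CPM in E6 (log2 FC -2.44, SE 0.07). *Scd1*, a stearoyl-CoA desaturase, had 80.9 and 82.6 CPM in WT and 17.5 and 13.2 CPM in E6 (log2 FC -2.43, SE 0.10). The related *Scd2* was among the most abundant of the mRNAs that fell, from 1230.4 and 1359.3 CPM to 461.3 and 329.1 CPM (log2 FC -1.71, SE 0.09). For *Timp3*, *Fabp5*, *Scd1* and *Scd2* a lack of overlap between the groups was a condition of the choice. It held for 72.8% of all tested mRNAs.

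*Ddit4*, a stress-induced inhibitor of mTORC1, fell with a wider spread between the E6 libraries. It had 164.1 and 181.6 CPM in WT, 54.6 CPM in E6 replicate 1 and 26.9 CPM in E6 replicate 2, and the estimate had an SE of 0.16 around a log2 FC of -2.11 (FDR 3.57e-09). *Trp53inp1*, a p53 target, behaved likewise, with 20.7 and 18.0 CPM in WT and 6.93 and 3.67 CPM in E6. *Tacc1* had 15.6 and 13.1 CPM in WT and 5.96 and 3.41 CPM in E6. For these 3 mRNAs the E6 library from 24 h lay above that from 12 h and below both WT libraries. *F2r*, the thrombin receptor PAR1, *Bmper*, a secreted BMP binding protein, and *Pcdh19*, a protocadherin, completed the 10 largest falls with log2 FCs of -1.89, -1.84 and -1.68.

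The largest rise at this level of expression was that of *Lgals3bp*, a secreted galectin-3 binding glycoprotein, from 4.72 and 3.53 CPM in WT to 46.8 and 35.8 CPM in E6 (log2 FC 3.29, SE 0.16, FDR 3.84e-12). *Serpinb2*, the plasminogen activator inhibitor 2, rose from 39.7 and 34.8 CPM to 232.6 and 282.6 CPM (log2 FC 2.79, SE 0.09). *Tnc*, the matrix protein tenascin C, rose from 113.1 and 88.6 CPM to 448.8 and 399.3 CPM (log2 FC 2.07, SE 0.08). In these 3 the gap between the groups was wider than the difference between the replicates of either group. *Acsbg1*, an acyl-CoA synthetase, rose from 6.36 and 7.22 CPM to 42.0 and 40.2 CPM, and *Atp10b*, a phospholipid transporter, from 5.81 and 5.60 CPM to 33.1 and 34.5 CPM. *Il24*, a cytokine of the IL-10 family, rose from 13.4 and 9.79 CPM to 47.9 and 53.5 CPM. *Sdc3*, a syndecan, *Ebf1*, a transcription factor, *Adra1b*, an adrenergic receptor, and *AI662270* rose by 1.95 to 2.10 on the log2 scale.

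**Figure D2:**
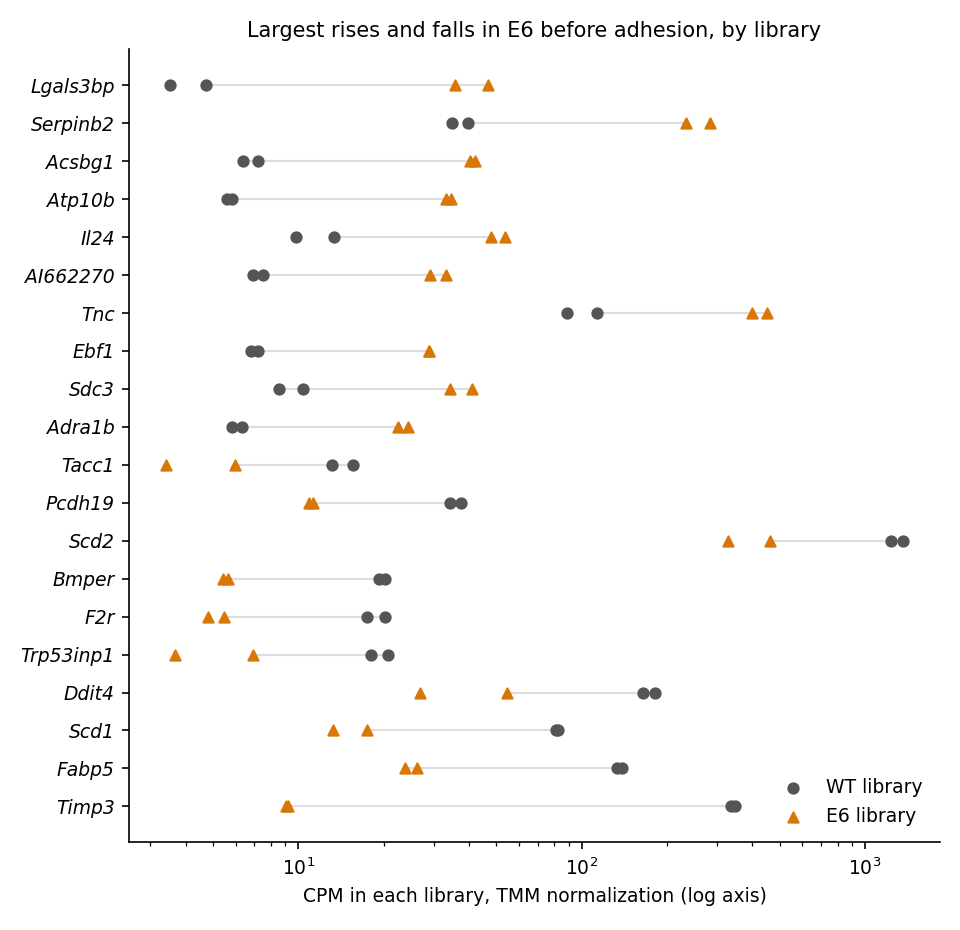
CPM with TMM normalization in each of the 2 WT and 2 E6 libraries (horizontal log axis) for the 10 mRNAs that rose most and the 10 that fell most among those DE with 4 and with 8 libraries whose mean log2 CPM reached 3. Circles are WT and triangles E6 libraries, and a lack of overlap between the groups was a condition of the choice.

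The most abundant DE mRNAs differed by smaller factors. *Fn1*, which encodes the matrix protein fibronectin, had 5743.0 and 5510.9 CPM in WT and 9872.2 and 8668.1 CPM in E6 (log2 FC 0.72, SE 0.05). It took 0.554% and 0.576% of the counts in WT and 0.861% and 0.984% in E6. *Cep170b* and *Cldn4* were also among the most abundant of the higher mRNAs, with log2 FCs of 0.62 and 0.66. On the other side, *Eef2*, the elongation factor 2 of translation, had 5444.2 and 5619.0 CPM in WT and 3317.4 and 3253.7 CPM in E6 (log2 FC -0.75, SE 0.04). *Scd2*, *Cyp51* of cholesterol synthesis and the ribosomal protein mRNAs *Rps12* and *Rps26* followed it. *Eef2*, *Rps12*, *Cep170b* and *Cldn4* were not DE in the fit of 8 libraries. Of the 20 most abundant mRNAs that were lower, 9 lie on chromosome 10, against 111 of all 804 that were lower.

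A few mRNAs that WT expressed were at 0 counts in E6. *Gpc4*, a glypican of the cell surface whose gene lies at chrX:52053021-52165252, had 86 and 65 counts in WT, *Mark1*, a microtubule affinity kinase, 71 and 65, and *Epha7*, an ephrin receptor, 66 and 59. Against a floor of 3 counts per library, 0.183 CPM on average in E6, the levels in E6 were at least 27.3-fold, 24.8-fold and 22.8-fold lower. The same 3 mRNAs had 0 counts in both E6 libraries after adhesion. No mRNA had 0 counts in both WT libraries and 50 or more in each E6 library.

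Genes of cholesterol synthesis were lower in E6 along most of the pathway. Of the 24 tested members of the list, 15 were DE and all 15 were lower, against 7.21% lower among all tested mRNAs. The median log2 FC was -0.85, where that of all tested mRNAs was -0.007, and the 15 were also DE in the fit of 8 libraries. *Hmgcs1*, which makes the precursor HMG-CoA, had 502.3 and 534.1 CPM in WT and 188.5 CPM in each E6 library (log2 FC -1.46, SE 0.06, FDR 2.18e-13). The mevalonate and isoprenoid enzymes *Pmvk*, *Mvd*, *Idi1* and *Fdps* fell by 0.96 to 1.39 on the log2 scale. *Fdft1* and *Sqle*, which make and oxidise squalene, had log2 FCs of -1.33 and -0.65, and the later sterol enzymes *Lss*, *Cyp51*, *Msmo1* and *Nsdhl* had log2 FCs from -1.22 to -0.80. The sterol sensor partner *Insig1* and the transport protein *Stard4* fell as well, by 0.74 and 0.91.

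The other 9 members did not pass. *Srebf2*, which encodes the main transcription factor of these genes, had 289.5 and 325.0 CPM in WT and 243.8 and 223.3 CPM in E6, a log2 FC of -0.40, below the FC limit. The related *Srebf1* had a log2 FC of -0.01.

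Fatty acid genes showed a similar picture with fewer members. Of 23 tested, 10 were DE, all lower, against 7.21% lower among all tested mRNAs, with a median log2 FC of -0.37. In the fit of 8 libraries 8 of them were DE, against 2.56% lower among all. Besides *Scd1*, *Scd2* and *Fabp5*, these were *Lpin1*, a phosphatidate phosphatase, which had 17.5 and 17.0 CPM in WT and 2.91 and 2.45 CPM in E6 (log2 FC -2.70, SE 0.17), the elongase *Elovl6*, the desaturases *Fads1* and *Fads2*, *Acly*, *Acsl3* and *Acacb*. *Elovl6* had 122.9 and 124.7 CPM in WT and 42.6 and 41.2 CPM in E6, and *Fads1* 112.2 and 117.4 CPM in WT and 43.4 and 35.7 CPM in E6. E6 replicate 1 was above replicate 2 in 14 of the 24 cholesterol genes and in 13 of the 23 fatty acid genes, where 50.0% of all tested mRNAs were.

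In the opposite direction, interferon-stimulated genes were higher in E6. Of 33 tested members 19 were DE, 18 higher and 1 lower, against 5.85% higher among all tested mRNAs, and the median log2 FC was 0.81. In the fit of 8 libraries 9 were DE, all higher. These genes are induced through a complex that holds STAT2 and IRF9 and binds the interferon-stimulated response element (ISRE). *Irf7*, a factor of the interferon response, had 0.242 and 0.663 CPM in WT and 8.24 and 5.59 CPM in E6 (log2 FC 3.95, SE 0.36). *Bst2*, the antiviral membrane protein tetherin, had 10.2 and 11.3 CPM in WT and 40.2 and 30.5 CPM in E6 (log2 FC 1.71, SE 0.13). The de-ISGylating enzyme *Usp18* had 1.09 and 0.957 CPM in WT and 5.82 and 2.40 CPM in E6. *Ifi27* rose from 6.36 and 6.48 CPM to 15.1 and 17.2 CPM. Most of the induced members were low in WT, and no WT library had over 1 CPM of *Irf7*, *Oas2*, *Oas3*, *Ifi44* or *Rtp4*.

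Of the 19 DE members 7 lie on chromosome 5, all 7 of them of the 2'-5'-oligoadenylate synthetase family, some members of which make the activator of RNase L. *Oas3* had 0.363 and 0.294 CPM in WT and 7.48 and 2.34 CPM in E6. *Oas2* had 2 counts in all in WT and 57 in E6, a ratio of 25.6 (95% exact interval 6.76 to 216.2, counting error only). *Oas1a*, *Oas1c*, *Oas1g*, *Oasl1* and *Oasl2* rose by 0.65 to 1.82 on the log2 scale. The *Oas1* copies are near-identical in part, and their split of reads is uncertain. Of these factors, *Irf9* was DE with a log2 FC of 0.85, and *Stat2* had a log2 FC of -0.45, below the FC limit. *Stat2* lies on chromosome 10. *Ifit2* was the one DE member that was lower, from 26.2 and 26.5 CPM to 17.2 and 13.8 CPM. The E6 library from 24 h was above that from 12 h in 29 of the 33 members (87.9%), where 50.0% of all tested mRNAs were. Without it 17 members were DE and the median fell from 0.81 to 0.50, and the part of culture time in the size of the rise was not tested.

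The ISRE was looked for as GAAANNGAAA on both strands of RefSeq promoters on GRCm38.p6, from 250 bases before to 50 after each start. It was found in 10 of the 25 tested members with a promoter (40.0%), against 3.99% of all 27025 genes with a promoter in the table. It occurred in 5 of the 13 members with a promoter that were DE and higher and in 5 of the 12 others. The windows around 1 match are shown for those 5, 4 of them neighbours on chromosome 5, with the match or its reverse complement in capitals. Some promoters hold further, overlapping matches. All are given on the strand of the gene.
Oas3, chr5:120777710-120777749, minus strand: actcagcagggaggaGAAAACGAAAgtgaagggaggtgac
Oas1c, chr5:120812604-120812643, minus strand: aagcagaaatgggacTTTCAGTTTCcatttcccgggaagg
Oas1g, chr5:120887614-120887646, minus strand: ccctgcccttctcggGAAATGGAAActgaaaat
Oas1a, chr5:120907526-120907560, minus strand: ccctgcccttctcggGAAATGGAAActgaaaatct
Bst2, chr8:71537578-71537617, minus strand: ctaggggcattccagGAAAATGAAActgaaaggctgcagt
A sterol regulatory element, looked for as TCACNCCAC in the same way, was in 1 of 16 cholesterol members with a promoter (6.25%) and in 1.44% of all genes with one. That member was *Hmgcs1*, with the match in capitals.
Hmgcs1, chr13:119690199-119690237, plus strand: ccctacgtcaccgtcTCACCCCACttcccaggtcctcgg

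**Figure D3:**
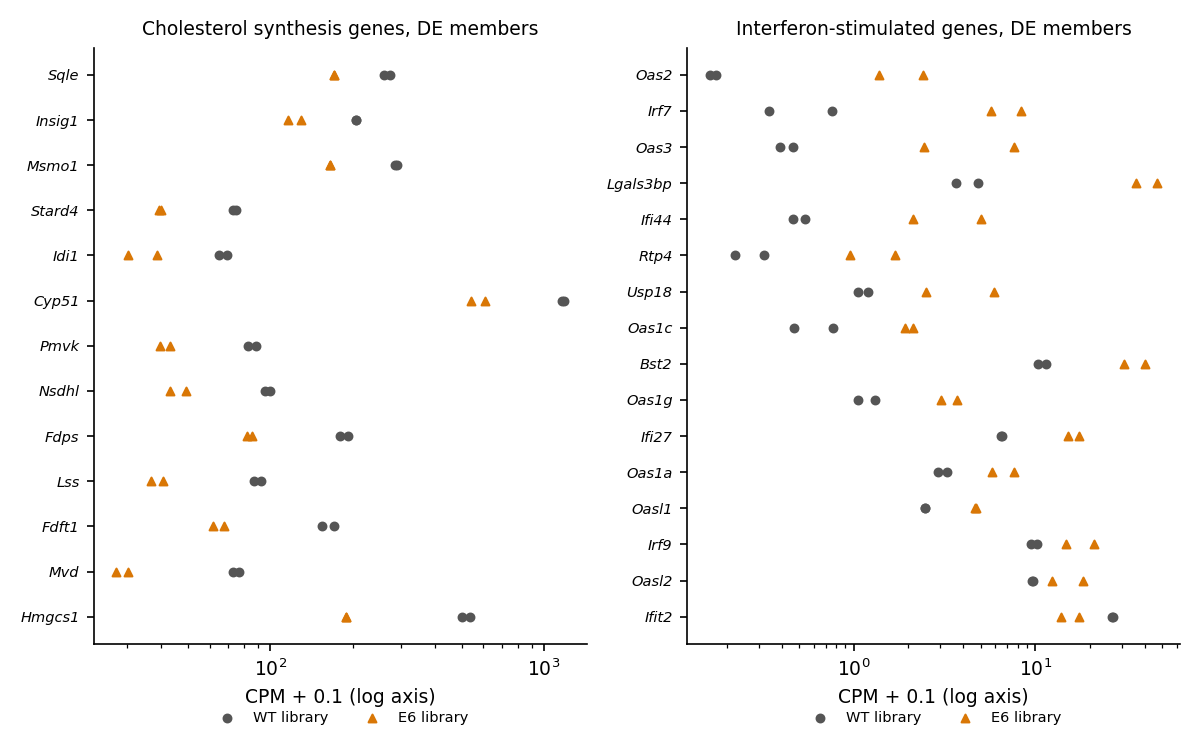
CPM plus 0.1 in each library (horizontal log axis) for 13 DE cholesterol synthesis genes and 16 DE interferon-stimulated genes described in the text, with WT libraries as circles and E6 libraries as triangles. The 13 cholesterol genes have E6 on the left of WT, and 15 of the 16 interferon-stimulated genes, all but *Ifit2*, have it on the right.

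Glycoproteins of the extracellular matrix, to which epithelial cells attach, were mostly higher in E6. Of 12 tested matrix glycoproteins 9 were DE, all higher, against 5.85% higher among all tested mRNAs, with a median log2 FC of 0.97. In the fit of 8 libraries 7 of them were DE, against 2.45% higher among all. Besides *Fn1*, *Tnc* and *Lgals3bp* these included *Ecm1*, from 239.1 and 264.6 CPM to 540.6 and 536.7 CPM, *Spp1* (osteopontin), from 130.2 and 114.2 CPM to 280.3 and 226.6 CPM, and *Cyr61*, a matricellular protein, from 96.8 and 88.6 CPM to 240.2 and 222.3 CPM. *Ctgf*, another member of the latter family, was spread between replicates, with 385.3 and 312.5 CPM in WT and 738.8 and 496.9 CPM in E6. Of 7 laminin chains 3 were DE, all higher, among them *Lama3* and *Lamb1*, with log2 FCs of 0.95 and 0.76. *Lama3* had 399.1 and 363.3 CPM in WT and 731.1 and 746.6 CPM in E6. The DE share of laminin chains was 42.9%, against 13.1% of all tested mRNAs.

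The collagen chains did not move one way. Of 15 tested, *Col7a1* of anchoring fibrils and *Col4a3* of basement membranes were higher, with log2 FCs of 0.76 and 0.63, and *Col18a1* and *Col12a1* were lower, with -0.93 and -0.85. *Col18a1* lies on chromosome 10. With 8 libraries *Col4a3* and *Col12a1* were DE. The DE share was 26.7% of collagen chains and 33.3% of integrin subunits, against 13.1% of all tested mRNAs. Of 12 integrin subunits, the receptors for these matrix proteins, *Itga2*, *Itga6* and *Itgb6* were higher and the low *Itga2b* was lower, 4 in all against 2 without E6 replicate 2 or without WT replicate 2. *Itga2*, part of a collagen receptor, rose from 1.15 and 1.77 CPM to 7.62 and 8.62 CPM (5.67-fold, FDR 6e-08), and *Itga6*, a receptor for laminin, from 149.9 and 130.0 CPM to 232.5 and 267.5 CPM.

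Enzymes and inhibitors of matrix turnover also differed. Of 11 plasminogen activator and serpin genes 5 were DE, all higher, against 5.85% higher among all tested mRNAs, with a median log2 FC of 0.54. With 8 libraries 3 were DE, and without WT replicate 2 also 3. Besides *Serpinb2*, the receptor *Plaur* and the inhibitors *Serpinb8* and *Serpinb9* rose, by 0.59 to 0.71 on the log2 scale. Of 18 TIMPs and metalloproteinases, *Timp3* was lower and *Adamts1*, *Adam12*, *Adam8* and *Mmp24* were higher, with 2 of the 5 DE in the fit of 8 libraries. The DE share of this list was 27.8%, against 13.1% of all tested mRNAs. *Adamts1* had 342.3 and 296.7 CPM in WT and 609.5 and 556.5 CPM in E6.

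Among cell surface and junction genes, single members changed by large factors. Most of each family did not pass, but neither did most of all tested mRNAs, of which 13.1% were DE. Against this, the DE share was higher for claudins and tight junction proteins, at 29.4%, and for nectins and nectin-like molecules. It was closer to that of all tested mRNAs for the other families. These were cadherin and desmosome genes (11.1%), surface receptors that bind thymocytes (16.7%) and Eph receptors and ephrins (13.3%). Of 17 claudins and tight junction proteins *Cldn1*, *Cldn4*, *Cldn6* and *Cldn25* were higher, and *Cldn9* was lower, from 7.39 and 6.11 CPM to 0.0693 and 0.213 CPM (log2 FC -5.42, SE 0.39). *Cldn1*, a main sealing claudin of epithelia, rose from 137 and 101 counts to 316 and 395 counts. *Cldn1* and *Cldn9* were DE with 8 libraries as well. Of 8 nectins and nectin-like molecules *Pvrl3* and *Cadm1* were DE, both higher. *Pvrl3*, which encodes nectin-3, had 13 and 7 counts in WT and 290 and 409 counts in E6 (log2 FC 4.96, SE 0.22, FDR 1.07e-12). Of 18 cadherin and desmosome genes 2 were DE, *Dsg3*, lower by 1.47 on the log2 scale, and *Cdh2*, the neural cadherin, which had 22 counts in WT and 0 in E6, at least 3.97-fold lower and not DE with 8 libraries. The hyaluronan receptor *Cd44* had 448.2 and 420.2 CPM in WT and 754.5 and 788.9 CPM in E6 (log2 FC 0.83, SE 0.05). Of the 12 surface receptors that bind thymocytes it was one of 2 that were DE, the other being *Vcam1*, from 0.424 and 0.442 CPM to 2.22 and 2.08 CPM. With 8 libraries *Vcam1* was DE and *Cd44* was not. Of 15 Eph receptors and ephrins *Epha7* and *Ephb6* were DE, both lower, and *Ephb6* was not DE with DESeq2, with 8 libraries, without E6 replicate 2 or without WT replicate 2.

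Glypicans and syndecans carry sulphated sugar chains at the cell surface, and genes of these proteins and of glycan sulphation changed in both directions. Of 20 tested, 5 were higher and 2 lower, against 5.85% higher and 7.21% lower among all tested mRNAs. With 8 libraries 6 of the 7 were DE. *Chst1*, a keratan and oligosaccharide sulphotransferase, rose from 0.485 and 0.442 CPM to 11.1 and 11.6 CPM (log2 FC 4.58, SE 0.26, FDR 4.39e-11). *Sdc3*, the chondroitin sulphotransferases *Chst7* and *Chst12*, and *Ext1*, which extends the heparan sulphate chain, were higher too. *Sulf2*, which removes 6-O-sulphate groups outside the cell, fell from 16.8 and 15.5 CPM to 2.84 and 3.67 CPM (log2 FC -2.29, SE 0.17), and *Gpc4* was at 0. Of 6 galectins *Lgals9* was higher and *Lgals3* lower, with log2 FCs of 0.70 and -0.60, and neither was DE with 8 libraries. The DE share of galectins was 33.3%, against 13.1% of all tested mRNAs.

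**Figure D4:**
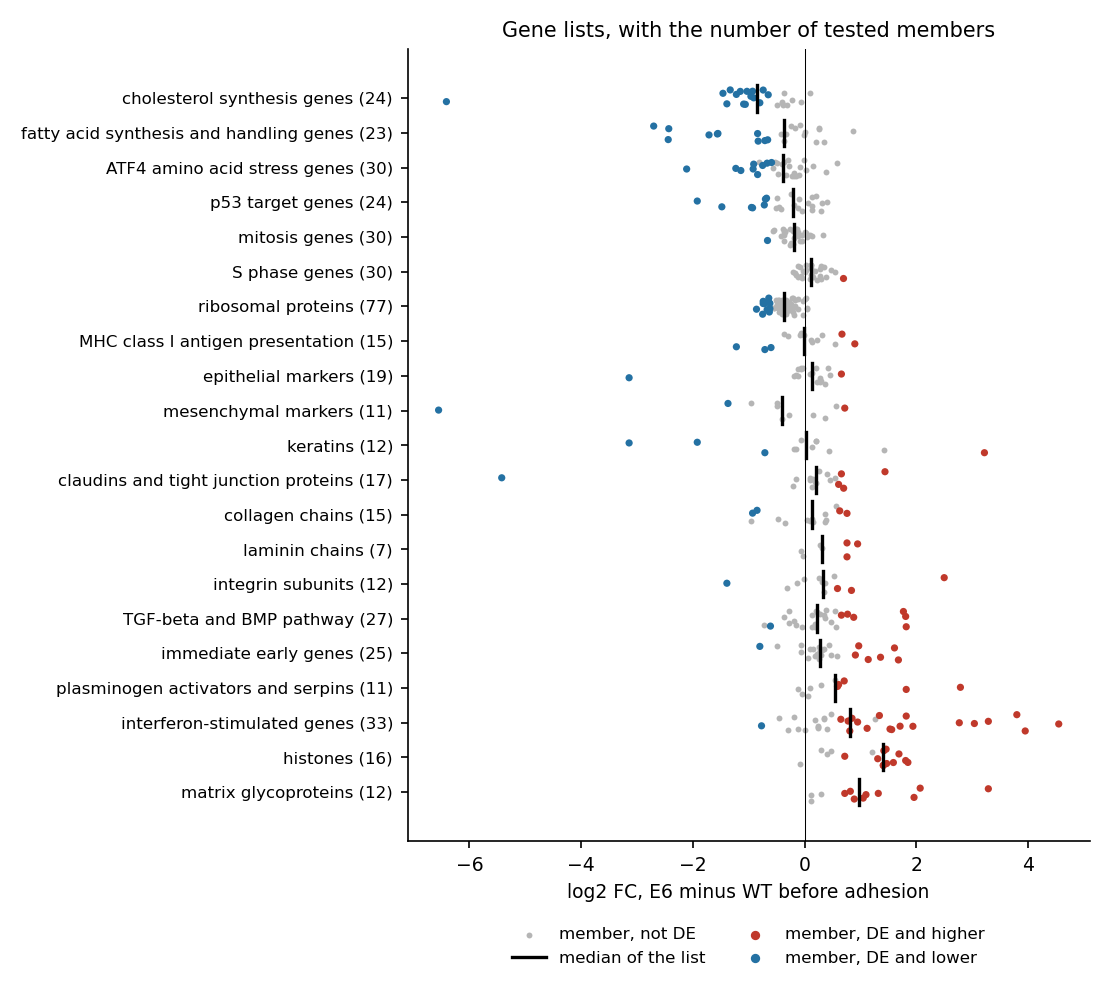
Log2 FC of E6 minus WT before adhesion (horizontal axis) for each tested member of selected gene lists (rows, number of tested members in brackets), with a bar at the median of the list. Red and blue points are DE members that were higher or lower and grey points were not DE, and DE members of the cholesterol list lie on the left and those of the matrix glycoproteins on the right of 0.

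Genes of the amino acid stress response driven by ATF4 that were DE were lower in E6. Of 30 tested, 9 were DE, all lower, against 7.21% lower among all tested mRNAs, with a median log2 FC of -0.39. In the fit of 8 libraries 4 were DE, against 2.56% lower among all. They included *Ddit4*, *Slc7a11*, the cystine transporter, with 405 and 309 counts in WT and 187 and 144 counts in E6, the serine pathway enzyme *Shmt2*, *Aldh1l2* and *Pck2*. Here the E6 library from 24 h was above that from 12 h in 29 of the 30 members (96.7%). Without it 14 members were DE with a median of -0.57, and without E6 replicate 2 the median was -0.25. The genes *Ddit4*, *Shmt2* and *Aldh1l2* lie on chromosome 10, and *Slc7a11* lies in the first 80 Mb of chromosome 3. The part of culture time in the size of the fall was not tested. Of 24 p53 targets 7 were DE, all lower, against the same 7.21%, with a median of -0.21, and 3 were DE with 8 libraries, against 2.56%. *Mdm2*, which degrades p53, had 182.0 and 164.8 CPM in WT and 112.3 and 98.4 CPM in E6, and the death receptor *Fas* had 181 and 135 counts in WT and 60 and 64 in E6. In this list E6 replicate 1 was above replicate 2 in 19 of the 24 members (79.2%). Hypoxia and glycolysis genes were divided, with 4 of 28 higher (*P4ha2*, *Car9*, *Pfkfb3* and *Vegfa*) and 4 lower (*Aldoc*, *Ankrd37*, *Mxi1* and *Bnip3*), of which *P4ha2*, *Pfkfb3* and *Mxi1* were DE with 8 libraries. Of 21 heat shock chaperones 2 were higher, *Hspb8* and *Hspa1b*, and 2 were lower, *Hspa4l* and *Hspa2*, and none was DE with 8 libraries. Of 27 metallothionein and oxidative stress genes 3 were higher (*Gsta1*, *Gpx1* and *Gstm2*) and 2 lower (*Slc7a11* and *Gstm1*), and 1 was DE with 8 libraries. DE shares were 28.6% of hypoxia and glycolysis genes, 19.0% of heat shock chaperones and 18.5% of oxidative stress genes, against 13.1% of all tested mRNAs.

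Of 25 immediate early genes 6 were higher and 1 was lower, against 5.85% higher and 7.21% lower among all tested mRNAs, with a median of 0.28, and 4 were DE with 8 libraries. E6 replicate 1 was above replicate 2 in 20 of the 25 members, and the median was 0.13 without E6 replicate 1 and 0.42 without E6 replicate 2. The AP-1 subunits *Fos*, *Fosb*, *Fosl1* and *Jun* were higher, and *Fosb* had 6.24 and 7.36 CPM in WT and 17.9 and 23.2 CPM in E6. *Dusp5*, a phosphatase that acts on ERK, rose from 10.7 and 11.3 CPM to 37.6 and 33.2 CPM, while *Klf4* fell from 296.5 and 325.1 CPM to 172.4 and 183.5 CPM. Of 12 EGF receptor family genes the ligands *Hbegf* and *Btc* were higher, and the receptor *Erbb3* and the feedback inhibitor *Spry1* were lower. Of the 4, *Hbegf* and *Erbb3* were DE with 8 libraries. *Hbegf* had 63.9 and 61.0 CPM in WT and 145.7 and 128.3 CPM in E6. Of 27 TGF-beta and BMP genes 6 were higher and 1 was lower, with a median of 0.22. The ligand *Bmp7* rose from 10.6 and 13.7 CPM to 42.0 and 42.7 CPM (log2 FC 1.81, SE 0.11), *Bmp6* and *Tgfb1* rose with it, and *Chrd*, a BMP inhibitor, fell by 0.61 on the log2 scale. In this list 3 members were DE with 8 libraries, *Bmp6* and *Bmp7* among them. DE shares were 33.3% of EGF receptor family genes and 25.9% of TGF-beta and BMP genes, against 13.1% of all tested mRNAs.

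Of 20 Wnt genes 3 were higher and 4 lower, and the receptors *Fzd3* and *Fzd7* alone were DE with 8 libraries. DE shares were 35.0% of Wnt, 15.4% of Notch, 15.8% of NF-kB and 40.0% of chemokine genes, against 13.1% of all tested mRNAs. The ligand *Wnt7a* rose from 78.9 and 78.7 CPM to 157.7 and 154.7 CPM, and the receptor *Fzd3* fell from 7.99 and 8.10 CPM to 2.98 and 2.66 CPM. Of 13 Notch genes *Lfng* was higher and *Hey2* lower, neither of them DE with 8 libraries. Of 19 NF-kB genes *Relb*, *Vcam1* and *Il1a* were higher and *Nfkbia*, the inhibitor, was not DE, with 17.9 and 14.7 CPM in WT and 13.2 and 12.8 CPM in E6. Of the 3, *Vcam1* was DE with 8 libraries. *Relb*, a subunit of the alternative pathway needed for mTECs, rose from 2.60 and 3.68 CPM to 9.70 and 7.13 CPM (log2 FC 1.42, SE 0.22). Of 5 chemokine ligands with enough counts *Ppbp* was higher and *Ccl9* lower, and neither was DE in the fit of 8 libraries.

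Genes of growth moved little, apart from those of histones and ribosomes. Of 30 S phase genes 1 was DE (*Ccne1*, cyclin E1, higher by 0.68) and of 30 mitosis genes 1 (*Cenpe*, a kinetochore motor, lower by 0.67). The medians were 0.11 and -0.19, and *Cenpe* was not DE with 8 libraries. Of 12 G1 inhibitors and cyclins *Ccnd3* was higher and *Rbl2* lower. DE shares were 3.33% for S phase, 3.33% for mitosis and 16.7% for this list, against 13.1% of all tested mRNAs. Genes of the histone clusters were higher in 11 of 16 tested, against 5.85% higher among all tested mRNAs, with none lower and a median of 1.41. With 8 libraries 4 were DE, by DESeq2 7 and without WT replicate 1 also 7. *Hist1h1c*, a linker histone, rose from 29.5 and 33.8 CPM to 89.0 and 80.4 CPM (log2 FC 1.42, SE 0.08), and *Hist1h2bg* from 3.39 and 3.46 CPM to 10.8 and 9.85 CPM. Most histone mRNAs carry no poly(A) tail and have near-identical copies, and the labels name an mRNA kit where the study's methods name a total RNA kit, so their low levels are uncertain. Ribosomal protein genes were lower by small steps. Of 77 tested 74 had a negative log2 FC, with a median of -0.37 against -0.007 for all tested mRNAs. The 12 that were DE (15.6%) were all lower, against 7.21% lower among all tested mRNAs. Of the 12, 4 lie on chromosome 10 and 5 were DE with 8 libraries. E6 replicate 1 was below replicate 2 in most of these genes, since it was above it in 16 of the 77 (20.8%). *Rps26* had 675.5 and 691.8 CPM in WT and 380.0 and 375.1 CPM in E6.

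Of the 44 tissue-restricted antigen genes in the files, 4 had enough counts and 0 were DE by edgeR or by DESeq2, with 1 and 0 at an unadjusted p under 0.05. *Mbp*, the myelin basic protein gene, was the one well expressed member, with 1408 and 1303 counts in WT and 1160 and 1532 in E6. Of 15 genes of mature mTECs and class II presentation 4 were tested. *Cd74*, the invariant chain, had 1 count in all in WT and 75 in E6, a ratio of 67.3 (95% exact interval 11.7 to 2692.1, counting error only), and *H2-DMb1* was higher by 0.80 on the log2 scale. The latter was not DE with DESeq2, with 8 libraries, or in 3 of the 4 fits that leave out 1 library. *H2-Aa*, *H2-Ab1*, *H2-Eb1* and *Ciita*, the class II activator, had 0 counts. Of 15 class I presentation genes *Tapbp* (tapasin) and *Erap1* were higher and *H2-Q4*, *H2-T23* and *Tap1* lower. *Tapbp* rose from 37.1 and 37.3 CPM to 75.1 and 63.7 CPM, and with *H2-Q4* it was DE with 8 libraries. The DE share of this list was 33.3%, against 13.1% of all tested mRNAs. E6 replicate 1 was above replicate 2 in 13 of these 15 genes (86.7%).

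Of 18 thymic epithelial transcription factors *Grhl1* was higher and *Klf4* and *Grhl3* lower, and 1 of the 3, *Klf4*, was DE with 8 libraries, while 5 members were DE without WT replicate 1. Of 9 mTEC regulators tested *Relb* was higher and *Sirt1*, a deacetylase on chromosome 10, lower, neither of them DE with 8 libraries. DE shares were 16.7% of thymic factors, 22.2% of mTEC regulators, 33.3% of keratins and 27.3% of mesenchymal markers, against 13.1% of all tested mRNAs. Of 12 keratins *Krt6a* was higher, from 0.242 and 0.368 CPM to 1.94 and 3.62 CPM, and *Krt13*, *Krt16* and *Krt19* were lower, the last from 2.24 and 3.24 CPM to 0.208 and 0.373 CPM. Of 11 mesenchymal markers *Fn1* was higher and *Cdh2* and *Zeb1* lower, 3 in all against 6 without E6 replicate 1 and 1 with 8 libraries, and the summed level of this list, 5670.9 to 5899.5 CPM in WT and 8812.5 to 10025.8 CPM in E6, was mostly *Fn1*. Of 9 S100 genes 0 were DE by edgeR or DESeq2, with 4 at an unadjusted p under 0.05 in each, and of 8 mouse genes related to immortalisation 0 were DE, with 6 in each.

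The changed mRNAs were spread unevenly over the genome. Where the mean log2 CPM reached 2, the 639 tested mRNAs of chromosome 5 had a median log2 FC of 0.34 and the 457 of chromosome 10 one of -0.33. The other chromosomes lay between -0.10 and 0.11. On chromosome 5, 148 of the 168 DE mRNAs were higher. On chromosome 10, 111 of the 118 DE mRNAs were lower. Both shifts appeared in each pair of a WT and an E6 library, with medians from 0.32 to 0.36 and from -0.34 to -0.33. They ran along the length of both chromosomes, since 12 of the 14 windows of 10 Mb on chromosome 5 had a median above 0.2 and the 12 windows of chromosome 10 lay between -0.52 and -0.25. On chromosome 3, in a split chosen after the windows were seen, the 127 genes of the first 80 Mb had a median of -0.44 and the 338 genes beyond it one of 0.0. No DNA was measured in the files used here.

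**Figure D5:**
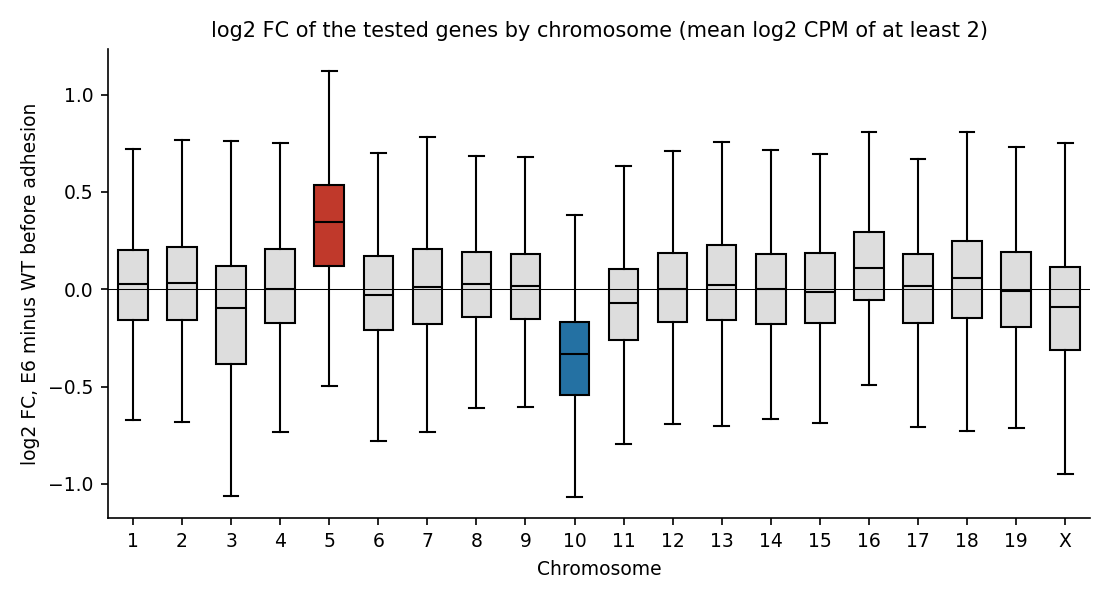
Log2 FC of E6 minus WT before adhesion (vertical axis) of the tested mRNAs whose mean log2 CPM reached 2, by chromosome, where boxes span the quartiles with a line at the median and whiskers reach to the last value within 1.5 times that span. The box of chromosome 5, in red, has its median at 0.34 and that of chromosome 10, in blue, at -0.33, while the other medians lie between -0.10 and 0.11.

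Several of the genes above lie on these chromosomes. *Timp3*, *Ddit4*, *Eef2*, *Rps26*, *Mdm2* and *Col18a1* lie on chromosome 10 and *Cldn4*, *Spp1* and the *Oas* genes on chromosome 5. *Cyp51* and *Insig1*, also on chromosome 5, were lower in E6, and *Ctgf*, on chromosome 10, was higher. *Cyp51* lies in the first 10 Mb of chromosome 5, a window with a median of 0.05. *Fabp5*, *Slc7a11*, *Spry1* and *Hspa4l*, all lower in E6, lie in the first 80 Mb of chromosome 3, the part with a median of -0.44. The part of the chromosome shifts in the change of single genes was not tested. Away from chromosomes 5 and 10, 1165 of 9860 tested mRNAs were DE (11.8%), with 496 higher and 669 lower. This remainder still holds chromosome 3, where 101 of 531 tested mRNAs were DE (19.0%), 25 higher and 76 lower.

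Some DE mRNAs were neighbours. A run of 6 adjacent tested genes on chromosome 5, from 120730333 to 121191397, was higher, namely *Oas2*, *Oas3*, *Oas1c*, *Oas1g*, *Oas1a* and *Ptpn11*, with log2 FCs from 0.71 to 4.55. A run of 6 histone genes on chromosome 13, from 23553262 to 23621124, was higher by 1.31 to 1.69. On chromosome X, *Bhlhb9*, *Arxes2*, *Tceal8* and *Wbp5*, from 135797594 to 136247139, were lower by values from -1.55 to -0.59. A run of 5 genes of a repeated family near 9266118 to 11922821 of chromosome 5 was higher, and its members share sequence, so that their counts are uncertain.

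The same contrast was read in the 4 libraries made after adhesion, in the fit of 8 libraries. Of the 1457 mRNAs that were DE before adhesion, 1399 (96.0%) had the same sign after it. The same share over all tested mRNAs was not taken. After adhesion 635 of the 1457 were DE, 632 of them in the same direction. These libraries are of the same clone and WT line, so they do not replicate the clone. In all, 1040 of 11672 tested mRNAs (8.91%) were DE after adhesion, 566 higher (4.85%) and 474 lower (4.06%). *Timp3* had a log2 FC of -5.25, *Serpinb2* of 2.85, *Tnc* of 2.08, *Lgals3bp* of 3.02, *Hmgcs1* of -1.51 and *Scd1* of -2.65 after adhesion, all DE. *Trp53inp1* and *Fas* did not pass there, with log2 FCs of -0.23 and -0.14. *Jun* was among the 3 that were DE in the other direction, with a log2 FC of 0.97 before and -0.59 after adhesion. In the libraries after adhesion the 18 thymocyte markers had 288 and 316 counts in WT and 2038 and 1623 counts in E6. The difference between the effects in the 2 conditions was not tested here.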

How the data were processed

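RNA-Seq libraries of WT mTEC 3.10 and of clone E6 before adhesion were analysed, 2 each, of 8 in the series. The authors aligned the reads to mm10 (GRCm38) with STAR 2.5.0a and deposited HTSeq output for each library, raw counts of reads per gene without normalization. The annotation and the strand setting are not given in the sources used here. In E6 replicate 1, 18 symbols turned into dates were restored from the gene order, which all libraries shared. Gene positions came from GENCODE vM21 on GRCm38, where 22740 of 24052 symbols matched as written, 935 by a former symbol and 377 in neither way.

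The tests used edgeR 4.0.16 under R 4.3.3. Low genes were removed with filterByExpr by group, libraries were scaled by TMM, and a quasi-likelihood model was fitted to the 4 libraries, with Benjamini-Hochberg adjustment. DE mRNAs had an FDR under 0.05 with an FC of 1.5 or more. CPM values use TMM, log2 CPM a prior count of 2. Standard errors are the absolute log2 FC divided by the square root of F. A common biological coefficient of variation of 0.047 was estimated from the 4 libraries and of 0.159 from 8, which include a library after adhesion that stands apart from its replicate. The procedure was tested on simulated data. With 2 libraries per group, precision is limited by the spread between them, and 3 counts were 0.159 to 0.222 CPM.

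The comparison, the 48 gene lists and the tests were chosen with earlier results of these data known. Named genes are the 10 largest rises and falls (DE with 4 and with 8 libraries, mean log2 CPM of 3 or more, no overlap), the 5 most abundant DE mRNAs each way, up to 2 DE members of a list each way with a mean log2 CPM of 1 or more, mRNAs at 0 in one group and at 50 counts or more in each library of the other, the genes that the study names and the markers. Other list members, *Syn3*, the split of chromosome 3 and the runs of neighbours were chosen after their values were seen. Lists were described by counts and medians and not tested. Some thymocyte genes were not analysed here, and some genes that the rule names are not reported here. Alternatives were RLE size factors, DESeq2 1.42.0, no filter, a replicate block, no FC limit, a test against the FC limit, 7 and 8 libraries, a correction for GC content (lowess span 0.3, limma 3.58.1) and each library left out in turn. Tables were made in Python 3.11.15 (pandas 2.3.3, numpy 2.4.6) and figures with matplotlib 3.10.9.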

Additional observations from a re-analysis of the deposited data

How the results depend on the processing

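The number of DE mRNAs, 1457, stayed within 1.5 times of itself with RLE size factors, DESeq2, no filter, the GC correction, 7 libraries, or 1 library left out, where it ran from 1347 without WT replicate 1 to 1543 without E6 replicate 1. It was 5122 with no FC limit, 569 in a test against the FC limit and 585 with all 8 libraries. The last differs from the 7 libraries (1511) by WT replicate 1 after adhesion alone. With the replicate numbers of the labels as a replicate block 1477 were DE. The numbers did not pair the libraries, since the deviations of same-numbered libraries had a correlation of -0.053 across 9753 genes, and they were not used as pairs. The ratio for the distances between libraries before adhesion was 5.78 with 1 - Pearson correlation and 3.41 over the 500 most variable genes. The chromosome 10 median log2 FC before adhesion was -0.31 where the mean log2 CPM reached 4.

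Of 105 named DE mRNAs none changed direction under any of these alternatives. The 10 largest rises and the 10 largest falls among them were chosen as DE with 8 libraries, so that fit could not lose them. DESeq2 lost 8, the test against the FC limit 33, all 8 libraries 43 and the GC correction 4, 7 libraries lost *Hspa1b*, and leaving out 1 library lost 6 to 11. Without E6 replicate 1 these were *Cldn4*, *Sirt1*, *H2-DMb1*, *Prss16*, *Cenpe*, *Lfng*, *Chrd*, *Col4a3*, *Lgals3*, *Hspa4l* and *Krt16*, and without E6 replicate 2 *H2-T23*, *Ppbp*, *Spry1*, *Hey2*, *Ephb6*, *Hspa2* and *Gstm2*. Without WT replicate 1 they were *Cep170b*, *Sirt1*, *H2-DMb1*, *Hey2*, *Hspa2* and *Gpx1*, and without WT replicate 2 *H2-DMb1*, *Prss16*, *Erap1*, *Hey2*, *Chrd*, *Ephb6*, *Lgals3* and *Gstm2*. The cause was not tested. Medians of the lists for class I presentation, keratins, cadherins, tissue-restricted antigens, macrophages and endothelium changed sign among the alternatives, all others kept theirs. With 1 mutant clone, clones are not replicated.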
